A study of Mus musculus with 3 samples.

Results

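A set of 9 genes best known from synapses was followed here through the epithelium of the mouse larynx: *Cadm2*, *Pcdh9*, *Mdga2*, *Lrrc4c*, *Cntn5*, *Ntng1*, *Nkain3*, *Grm8* and *Tmem108*. They were matched by symbol, and all 9 were present among the 33696 features of each library. They had been chosen by how their transcripts differed between epithelial cell classes in these same libraries, so their levels by class are a description and were given no test. The data are 3 single-cell libraries of 1 group, with no treatment or genotype to compare. Each library was a pool of 10 larynges, 5 from males and 5 from females, of Lrig1CreERT2/+ mice that also carried 1 ROSA26CAG-LSL-tdTomato allele, on a C57BL/6J background. The cells were sorted for tdTomato 24 h after tamoxifen-induced recombination, so they had, or had arisen from cells that had, an active *Lrig1* promoter, and WT and tdTomato-only mice served only to set the sorting gates. The Cre is expressed from the *Lrig1* locus, *Lrig1* being a transmembrane regulator of ErbB receptors and a marker of epithelial stem cells. The transcripts of tdTomato and Cre were not counted, and the sort has therefore no check in these data. Nothing in the labels gives separate values for a single animal, and the spread between libraries is a spread between pools.

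At a synapse, adhesion molecules on the membranes of facing cells bind each other, align the release site with the receptors and set which partners connect. *Cadm2* is an immunoglobulin-family adhesion molecule, *Pcdh9* a protocadherin, and *Cntn5* a contactin held in the membrane by a lipid anchor. *Ntng1* encodes netrin-G1, a lipid-anchored axonal protein, and *Lrrc4c* encodes its leucine-rich-repeat binding partner on the facing membrane. *Mdga2* encodes an anchored immunoglobulin protein that binds neuroligins and keeps neurexins from them. The remaining members are not adhesion molecules by their own structure: *Grm8* is a presynaptic metabotropic glutamate receptor, *Tmem108* a membrane protein of dendrites and endosomes, and *Nkain3* a small membrane protein related to partners of the sodium pump.

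All 9 are long genes. In the GRCm39 annotation they spanned 279.0 kb (*Tmem108*, chr9:103360134-103639128, minus strand) to 1313.5 kb (*Lrrc4c*, chr2:96148514-97462016, plus strand), against a median of 14806 bases over all genes. *Cadm2* lies at chr16:66451872-67417816, *Pcdh9* at chr14:93250846-94128152, *Mdga2* at chr12:66512834-67269499, *Cntn5* at chr9:9658790-10904780, *Ntng1* at chr3:109687356-110051327, *Nkain3* at chr4:20111115-20778866 and *Grm8* at chr6:27275118-28135177, all on the minus strand. The exons of the canonical transcript covered 0.313% to 1.89% of the span of each gene, so nearly all of each span lies outside these exons. The canonical transcript can be shorter than the span: that of *Lrrc4c* starts after chr2:97297383. Whether unspliced reads were counted is not given in the sources used here, and a count below can therefore hold intronic reads. No annotated gene overlapped a member on its own strand, and 5 members had antisense genes inside them.

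The 250 bases before the canonical transcript start are shown for 3 members. Their highest mean levels lay in 3 different classes: *Cadm2* in airway luminal, *Tmem108* in airway basal and *Grm8* in squamous basal cells. *Pcdh9*, also highest in airway basal cells, is not shown. The letters are from GRCm39 and run 5′ to 3′ on the minus strand, from chr16:67417817-67418066, chr9:103639129-103639378 and chr6:28134545-28134794. Capitals mark the E-box CACGTG.
Cadm2: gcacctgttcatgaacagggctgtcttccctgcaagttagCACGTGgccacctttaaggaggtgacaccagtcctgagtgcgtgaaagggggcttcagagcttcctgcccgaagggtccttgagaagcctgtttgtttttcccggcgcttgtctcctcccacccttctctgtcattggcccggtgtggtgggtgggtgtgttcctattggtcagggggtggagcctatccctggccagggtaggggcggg
Tmem108: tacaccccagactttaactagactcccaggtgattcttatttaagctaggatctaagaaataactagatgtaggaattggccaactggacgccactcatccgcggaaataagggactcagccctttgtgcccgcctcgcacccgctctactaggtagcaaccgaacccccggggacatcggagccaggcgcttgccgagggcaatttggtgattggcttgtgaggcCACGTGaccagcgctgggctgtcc
Grm8: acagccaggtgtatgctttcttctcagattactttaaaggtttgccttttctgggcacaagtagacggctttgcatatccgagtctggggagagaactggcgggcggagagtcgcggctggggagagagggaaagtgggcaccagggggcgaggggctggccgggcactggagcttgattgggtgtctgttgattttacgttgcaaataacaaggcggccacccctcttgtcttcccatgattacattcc
The E-box lay 210 bases before the start of *Cadm2* and 24 bases before that of *Tmem108*. It reads the same on both strands. Of the 9 member promoters only these 2 held it, as did 6.26% of 21431 protein-coding promoters of the same length. The letters CAAGTG, the core bound by NKX2-1, were searched on both strands and stood in none of the 9 member promoters and in 12.4% of all, and those of a TATA box (TATAAA) and an AP-1 site (TGACTCA) in none of the members and in 11.9% and 4.01%. A match is no evidence of binding, and its absence concerns this window alone.

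The libraries held 18068, 10816 and 31646 barcodes and 147898790 to 413632222 UMIs, the unit in which each captured transcript is counted once. After limits on cells and removal of doublets, 13222, 7201 and 24119 cells remained, with medians of 10086 to 13976 UMIs. Pairs of libraries shared 46 to 165 cell barcodes. Epithelial cells were those with an *Epcam* UMI and none of *Ptprc*, *Pdgfra*, *Cdh5* or *Pax7*, and numbered 28911. Of these, 22647 fell into 6 classes set by gates on UMIs. Basal cells had *Trp63* and at least 2 *Krt5* UMIs and under 10 *Krt13* UMIs. They were called airway basal with *Nkx2-1* only (4076 cells), squamous basal with *Tmprss11a* only (9351), double-positive with both (5324) and double-negative with neither (1893). Krt13-high cells, gated to represent suprabasal cells, had at least 10 *Krt13* UMIs and no *Nkx2-1* (1660), and airway luminal cells had *Nkx2-1* and at least 10 secretoglobin UMIs without *Trp63*, *Tmprss11a* or the *Krt13* level (343). Markers outside the gates followed the names of the airway and squamous classes: 4 of 5 airway markers were higher in airway than in squamous basal cells without overlap of libraries, the exception being *Foxa1*, and 5 of 5 squamous markers were lower. Cells past the Krt13 gate had markers of both layers: 4 of 5 suprabasal markers were higher in Krt13-high than in squamous basal cells, the exception being *Sprr3*, but the 5 basal markers also summed to 8857 to 12239 CPM in Krt13-high cells against 6405 to 8204 CPM in squamous basal cells, and *Trp63* was found in 87.9% to 88.7% of them. The class is therefore called by its gate, Krt13-high. Median UMIs per cell ran from 13532 to 19804.5 in squamous basal, 13017 to 18139 in airway basal, 14033 to 21752 in airway luminal and 22145 to 27056 in Krt13-high cells, and were lowest in the double-negative class (6172 to 11435.5). A cell without a UMI of a gate gene may still express it, so the double-negative class can hold shallow cells as well as cells that lack both. The double-positive class rests on as little as 1 UMI of each gate gene, and satellite cells and macrophages, which should lack both, had a *Tmprss11a* UMI in 1.33% to 10.0% and an *Nkx2-1* UMI in 2.12% to 5.00% of cells. Removal of doublets took this class from 977, 752 and 4846 to 817, 681 and 3826 cells. The part of free RNA and of remaining doublets in its values was not tested.

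Markers of neurons were near 0 in all 6 classes. The 8 neuron markers together summed to 0.965 to 1.59 CPM (counts of UMIs summed over the cells of a class and scaled to the same total in every class and library) in squamous basal cells and 1.10 to 3.50 CPM in airway basal cells, against 1020 to 1188 CPM in the neuroendocrine cells of the same libraries. In each basal class 1 or 2 of the 8 had no UMI in any library, and 7 or 8 were under 2 CPM in every library. The 7 Schwann cell markers summed to 95.3 to 120 CPM in every basal class and to 106 to 115 CPM in Krt13-high cells, where most members were near their floor. In each of these classes 1 of the 7 had no UMI in any library, and 3 to 5 were under 2 CPM in every library.

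Among the cell-surface adhesion molecules, *Pcdh9* marked airway-side basal cells. It stood at 594, 555 and 347 CPM in airway basal cells of libraries 1 to 3 and at 77.7, 37.3 and 36.3 CPM in squamous basal cells, with no overlap. The fold from the edgeR fit was 10.2 (log2 difference 3.35, SE 0.19), and the folds given below come from the same fit. A *Pcdh9* UMI was found in 59.9% ± 6.18 of airway basal cells and in 13.4% ± 5.21 of squamous basal cells (SD, n = 3 libraries). Double-negative cells (545, 340 and 274 CPM) and double-positive cells (376, 277 and 231 CPM) lay between, and their libraries overlapped with each other and with airway basal cells. Within each library airway basal cells were above double-negative cells, and these above double-positive cells. *Pcdh9* was lower again in the 2 remaining classes: 116, 191 and 105 CPM in airway luminal cells and 4.18, 2.06 and 3.50 CPM in Krt13-high cells. Krt13-high cells were the deepest of the 6 classes and yet gave a *Pcdh9* UMI in only 5.41% ± 1.59 of cells.

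*Cadm2* differed from the other members in being highest in luminal cells. Airway luminal cells held 378, 276 and 344 CPM, and airway basal cells 188, 139 and 160 CPM. The libraries did not overlap, and the luminal level was higher in each of the 3 (log2 difference 1.37, SE 0.12). In squamous basal cells *Cadm2* stood at 36.7, 15.3 and 22.7 CPM, and in Krt13-high cells at 3.59, 2.22 and 2.14 CPM. Double-positive, airway basal and double-negative cells came next after luminal cells, at means of 173, 162 and 150 CPM, and did not differ beyond their spread. The share of cells with a *Cadm2* UMI followed the same order at the ends, 52.8% ± 8.47 of luminal, 40.3% ± 2.39 of airway basal, 10.0% ± 4.77 of squamous basal and 4.004% ± 1.03 of Krt13-high cells. With every cell thinned to 5000 UMIs and shallower cells left out, the shares were 40.8% ± 7.38, 30.5% ± 3.59, 7.27% ± 3.79 and 1.34% ± 0.436, in the same order.

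*Cntn5* was rare and uneven between libraries. It reached 44.1, 15.4 and 17.8 CPM in airway basal cells and 2.43, 0.217 and 1.95 CPM in squamous basal cells. Double-negative cells gave 89.9, 4.69 and 25.6 CPM, a range that covered the airway basal values entirely. Only 3.86% ± 1.31 of airway basal cells and 4.05% ± 2.24 of double-negative cells had a *Cntn5* UMI, so a small number of cells carried it. In airway luminal cells *Cntn5* was seen as 0, 1 and 1 UMIs, and in Krt13-high cells as 0, 1 and 11 UMIs, so no fold is given for these classes.

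**Figure D1:**
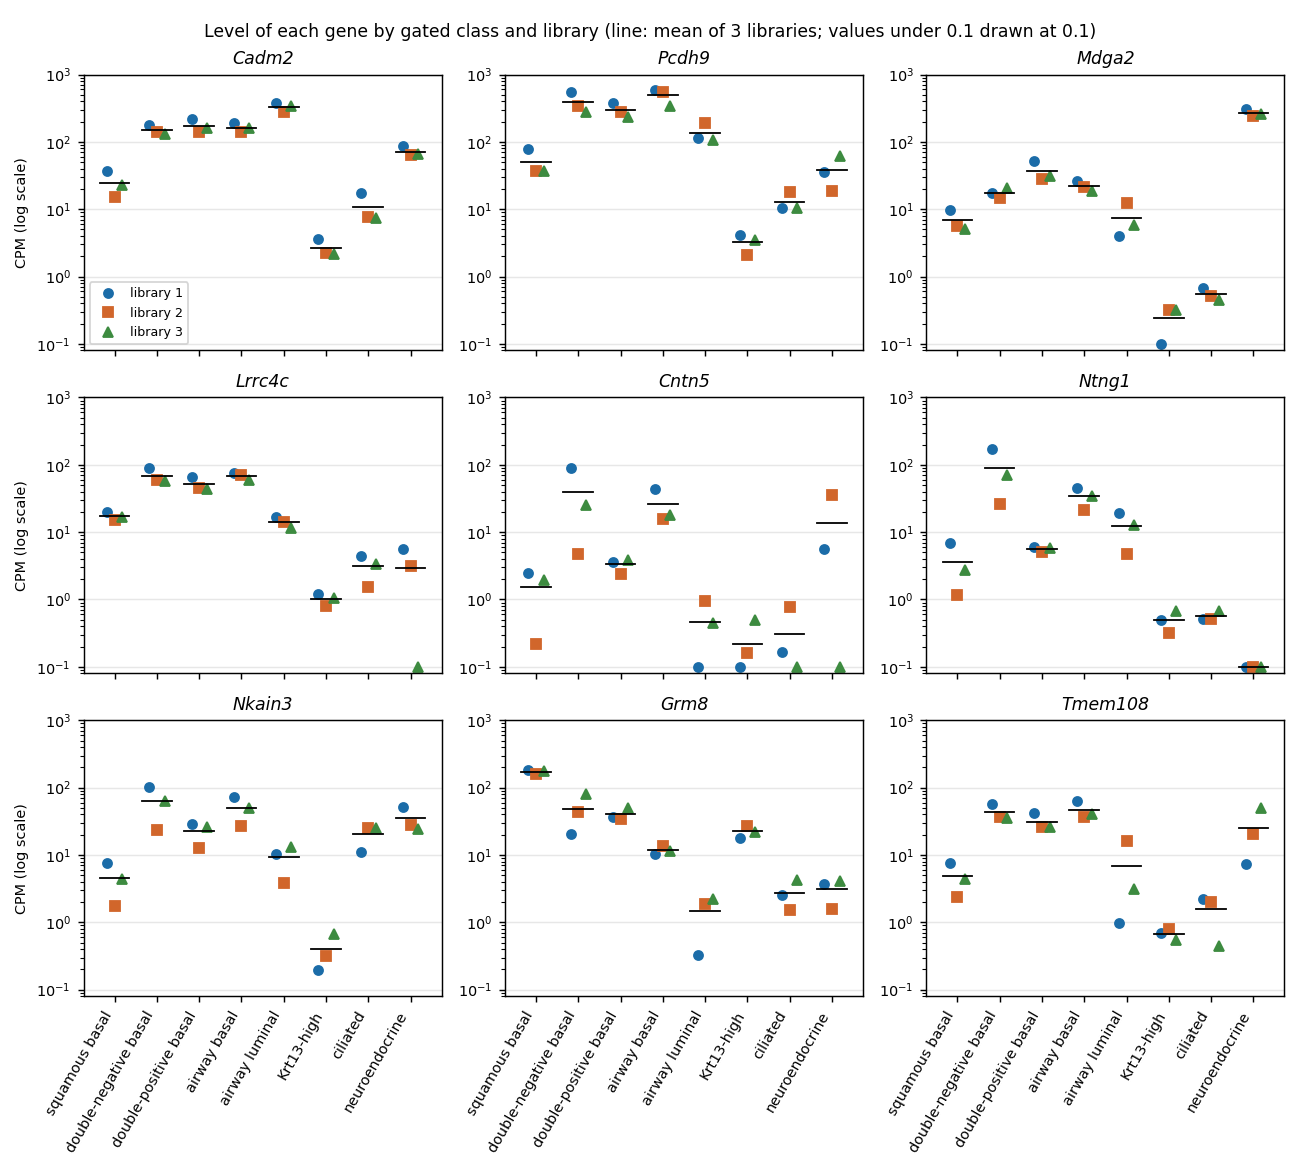
Level of each of the 9 genes (CPM of summed UMIs, log axis, values under 0.1 drawn at 0.1) in the 6 epithelial classes and in ciliated and neuroendocrine cells, with 1 symbol per library and a line at the mean of 3 libraries. *Grm8* is the only panel in which the squamous basal symbols (159 to 180 CPM) lie above those of all other classes, *Cadm2* is led by airway luminal cells without overlap (276 to 378 CPM), and *Mdga2* is highest in neuroendocrine cells (244 to 305 CPM).

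Transcripts of netrin-G1 and of its binding partner were both detected on the airway side. *Ntng1* stood at 45.5, 21.4 and 34.9 CPM in airway basal cells and 6.79, 1.18 and 2.76 CPM in squamous basal cells. Its highest mean was in double-negative cells, where library 1 held 172 CPM and libraries 2 and 3 held 26.4 and 70.0 CPM. These values lay above airway basal cells within each library, but the ranges overlapped. Double-positive cells, although gated on an *Nkx2-1* UMI, held 6.06, 5.06 and 5.90 CPM, and overlapped with squamous basal cells. *Cntn5* was also low in double-positive cells (3.65, 2.36 and 3.92 CPM), above squamous basal cells within each library but with ranges that just overlapped. For *Cadm2*, *Pcdh9*, *Mdga2*, *Lrrc4c*, *Nkain3* and *Tmem108* all double-positive libraries lay above all squamous basal ones. The share of all genes apart in this way between double-positive and squamous basal cells was not counted, and nothing is read from this list.

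*Lrrc4c*, the gene of the netrin-G1 partner, was more widely detected and more even. It stood at 74.4, 71.4 and 59.1 CPM in airway basal cells, with a UMI in 35.8% ± 5.84 of them, and at 19.7, 15.1 and 16.99 CPM in squamous basal cells, with a UMI in 11.1% ± 1.22. Double-negative and airway basal cells could not be ordered (means 68.7 and 68.3 CPM). Luminal cells held 16.8, 14.3 and 11.6 CPM, below squamous basal cells within each library but with ranges that overlapped. Krt13-high cells held 1.20, 0.792 and 1.05 CPM.

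*Mdga2*, the neuroligin-binding member, was highest in double-positive cells, at 52.4, 27.9 and 31.1 CPM. Airway basal cells followed with 26.2, 21.2 and 18.6 CPM and squamous basal cells with 9.84, 5.68 and 5.03 CPM. None of these ranges overlapped, and *Mdga2* was the member with the smallest fold between airway and squamous basal cells, 3.33 (log2 difference 1.74, SE 0.19). Luminal cells (3.95, 12.4 and 5.78 CPM) could not be told from squamous basal cells by their spread, and Krt13-high cells held 1, 2 and 7 UMIs in all. Outside these classes *Mdga2* was at its highest in neuroendocrine cells, at 305, 244 and 262 CPM, with a UMI in 38 of the 47 cells of library 1 (80.9%, Wilson 95% interval 67.5% to 89.6%, which covers counting error only). The neuroligins it binds were unlike in their levels: *Nlgn1* averaged 503 ± 177 CPM in neuroendocrine cells but 0.906 ± 0.899 and 2.24 ± 1.27 CPM in squamous and airway basal cells, while *Nlgn2* stood at 8.57 ± 0.610 and 8.87 ± 0.887 CPM in the same basal classes.

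*Nkain3* and *Tmem108* followed the airway side as well. *Nkain3* stood at 72.4, 26.8 and 50.1 CPM in airway basal cells and 7.56, 1.74 and 4.42 CPM in squamous basal cells, a fold of 11.4. A UMI was found in 16.996% ± 4.11 of airway basal and 14.9% ± 3.96 of double-negative cells. *Tmem108* stood at 62.4, 36.5 and 40.4 CPM in airway basal and 7.64, 2.36 and 4.41 CPM in squamous basal cells, a fold of 9.86. Luminal cells held 0.987, 16.2 and 3.11 CPM of *Tmem108*, where library 2 stood above the others on 17 UMIs from 49 cells. Libraries 1 and 3 rest on 3 and 7 UMIs.

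*Grm8* was the opposite case. It stood at 180, 159 and 174 CPM in squamous basal cells and at 10.4, 13.4 and 11.5 CPM in airway basal cells. Squamous basal cells were thus 15.1-fold higher (airway minus squamous, log2 difference -3.92, SE 0.25), and a *Grm8* UMI was found in 45.4% ± 2.81 of them against 6.39% ± 1.33 of airway basal cells. Krt13-high cells held 18.1, 27.4 and 22.1 CPM, above airway basal cells in every library, and the fold down from squamous basal cells was 7.28 (log2 difference -2.86, SE 0.24). Luminal cells gave 1, 2 and 5 UMIs in all. Double-negative cells ranged widely, at 20.6, 43.7 and 81.9 CPM, and double-positive cells held 37.2, 34.4 and 49.6 CPM, between the airway and squamous levels without overlap with either. Of the other metabotropic glutamate receptor genes, *Grm2* to *Grm7* each averaged under 1 CPM in both squamous and airway basal cells, and *Grm7* and *Grm3* were at 25.1 ± 8.21 and 5.91 ± 1.05 CPM in fibroblasts. *Elfn1* and *Elfn2*, which encode adhesion partners of group III receptors, averaged 0.0560 and 0 CPM in squamous basal cells.

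**Figure D2:**
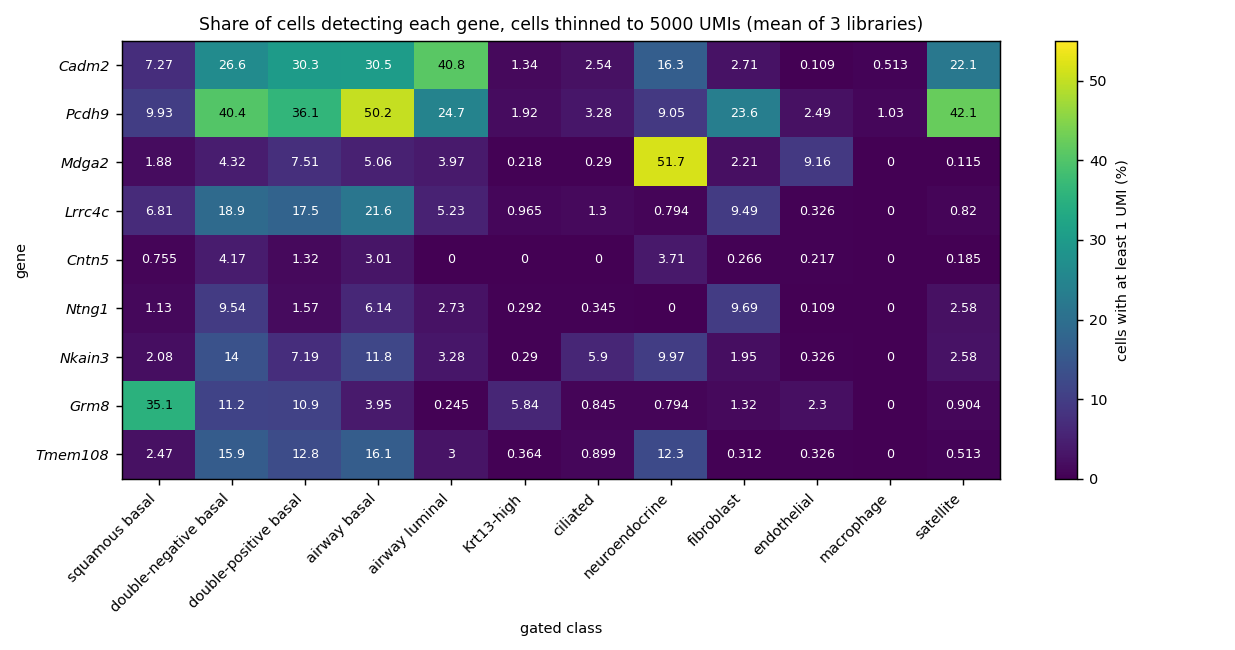
Heat map of the share of cells (%) with at least 1 UMI of each gene after every cell was thinned to 5000 UMIs, as the mean of 3 libraries, with genes in rows and the gated classes in columns, the other gated cell types of the larynx included. *Pcdh9* reaches 50.2% of airway basal cells and *Grm8* 35.1% of squamous basal cells, and in Krt13-high cells each gene but *Grm8* (5.84%) is below 2%.

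Set side by side, 8 of the 9 members were higher and 1 (*Grm8*) was lower in airway than in squamous basal cells, with no overlap of libraries for any. These contrasts chose the members and nothing is read from these counts. Over all 15364 genes tested, 17.1% were higher and 15.7% lower without overlap of their CPM, and 16.7% were called higher and 17.1% lower by edgeR at an adjusted p of 0.05. All 9 members were lower in Krt13-high than in squamous basal cells in every library, and 8 did not overlap, the exception being *Cntn5*. Of all genes 9.62% were higher and 30.8% lower without overlap there, and 23.5% were called higher and 22.7% lower. From airway basal to airway luminal cells 1 member (*Cadm2*) was higher and 8 were lower, none with overlap. Of all genes 8.27% were higher and 44.5% lower without overlap, and 17.4% were called higher and 18.9% lower. CPM, unlike the edgeR fit, is not corrected for a few genes that take a large share of a class. The fall from airway basal to luminal cells was smallest for *Ntng1* (log2 difference -1.14, SE 0.38). In macrophages, a class that should lack these transcripts, *Mdga2*, *Cntn5*, *Ntng1*, *Nkain3* and *Tmem108* gave no UMI in 118 cells (which allows a share of up to 2.54% of cells with a UMI), at median depths of 7014 to 14656 UMIs. The other 4 members were seen there: *Cadm2* averaged 4.56 ± 6.48 CPM, *Lrrc4c* 2.84 ± 2.46, *Grm8* 2.83 ± 4.90 and *Pcdh9* 1.14 ± 1.97 CPM, on at most 5 UMIs in a library. These means rest on 1 or 2 libraries each and on 20 to 75 cells in a library. *Cadm2* and *Lrrc4c* in Krt13-high cells (means of 2.65 and 1.01 CPM) and *Grm8* in luminal cells (1.49 CPM) were below them, but not in every library, and cannot be told from background here. Counted per cell, airway basal cells held 1.92 to 2.26 of the 9 members and squamous basal cells 0.773 to 1.03, and macrophages 0.0933 to 0.130.

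Other genes of the same kind did not all lean to the airway side. Of a list of 97 further synaptic adhesion and organiser genes, 96 were among the features and 63 were tested, of which 18 were higher and 15 lower in airway than in squamous basal cells (28.6% and 23.8%, against 16.7% and 17.1% of all genes), with a median log2 difference of 0.08 against -0.00 for all genes. Among those that rose on the airway side were *Sdk1* (284 ± 102 against 34.4 ± 16.4 CPM, log2 difference 3.05, SE 0.22, adjusted p = 1.61e-08) and *Pcdh17* (2.66, adjusted p = 5.05e-07), both adhesion molecules. *Opcml*, a lipid-anchored immunoglobulin protein, fell most (2.44 ± 2.14 against 26.1 ± 1.65 CPM, log2 difference -3.24, adjusted p = 1.39e-05), with *Tenm4*, a teneurin (-1.64, adjusted p = 4.92e-09), and *Flrt2*, a ligand of teneurin receptors (-1.45, adjusted p = 8.28e-08). Among the binding partners and paralogs of the members, a list that overlaps with the first, 3 of 13 tested were higher and 3 lower (23.1% each). The paralog *Cadm1* was higher in airway basal cells, as *Cadm2* was, at 106 ± 8.09 against 18.8 ± 5.70 CPM (log2 difference 2.56, adjusted p = 1.06e-05), but unlike *Cadm2* it was not higher still in luminal cells (77.1 CPM) and stood at 25.2 ± 28.8 CPM in Krt13-high cells. The protocadherin *Pcdh7* (173 ± 21.5 against 325 ± 44.8 CPM, adjusted p = 2.12e-06) and the netrin-G paralog *Ntng2* (5.93 ± 2.13 against 9.40 ± 0.638 CPM, adjusted p = 0.0214) moved opposite to *Pcdh9* and *Ntng1*. Of 26 tested genes for synaptic vesicles, receptors and scaffolds, 9 were higher and 2 lower (34.6% and 7.69%), led by the scaffold *Homer2* (log2 difference 1.56, adjusted p = 2.60e-05) and the glutamate receptor subunit *Gria3* (1.27, adjusted p = 0.000519), while the subunit *Gria4* was lower (-0.68, adjusted p = 0.0205).

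Between Krt13-high and squamous basal cells, 31 of the 63 adhesion genes were lower and 8 higher in Krt13-high cells (49.2% and 12.7%, against 22.7% and 23.5% of all genes), with a median log2 difference of -1.02 against -0.03 for all genes. *Adgrl3*, a latrophilin, fell from 73.7 ± 18.7 to 3.25 ± 0.410 CPM (adjusted p = 8.49e-11), and *Dscaml1* fell by 3.41 on the log2 scale (adjusted p = 3.19e-09). *Igsf9*, *Pcdh1* and *Cadm4* rose by 0.84, 0.77 and 0.67 (adjusted p = 4.49e-06, 7.78e-06 and 5.65e-05). The vesicle, receptor and scaffold list had 14 lower and 2 higher of 26 (53.8% and 7.69%), and the partner list 4 lower and 2 higher of 13 (30.8% and 15.4%), *Nlgn2* among the lower (4.45 ± 0.670 against 8.57 ± 0.610 CPM, adjusted p = 0.000207). From airway basal to luminal cells 20 of the 63 adhesion genes were lower and 4 higher (31.7% and 6.35%, against 18.9% and 17.4% of all genes, median -0.69 against -0.07). *Sdk2* and *Dscaml1* fell by 3.83 and 3.42 on the log2 scale (adjusted p = 2.78e-06 and 6.48e-08), *Clstn2* stood at 0 UMIs in luminal cells of every library (which allows up to 2.86 CPM in library 2, where the class had the fewest UMIs in all) against 5.36 ± 2.41 CPM in airway basal cells, and *Nectin3*, *Cadm4* and *Slitrk6* rose (1.24, 1.17 and 0.91, adjusted p = 1.87e-05, 2.82e-06 and 0.000939). Among vesicle, receptor and scaffold genes 6 were higher and 5 lower (23.1% and 19.2%), and among partners 1 and 2 (7.69% and 15.4%).

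Length moved with part of this. Of the 63 adhesion genes 24 span at least 500 kb. Of these 24, 8 were higher and 6 lower in airway than in squamous basal cells (33.3% and 25.0%). In Krt13-high against squamous basal cells 0 were higher and 16 lower (66.7%). From airway basal to luminal cells 0 were higher and 8 lower (33.3%). The part of length in the calls of the adhesion list was not tested. The members *Ntng1* and *Tmem108* are shorter than 500 kb. The 190 tested genes of at least 500 kb, members left out, had 65 higher and 25 lower in airway than in squamous basal cells. These were 34.2% and 13.2%, against 16.7% and 17.1% of all genes (median log2 difference 0.14). In Krt13-high against squamous basal cells 6 were higher and 112 lower (3.16% and 58.9%, against 23.5% and 22.7% of all genes, median -1.08). From airway basal to luminal cells these long genes had 43 higher and 49 lower (22.6% and 25.8%, against 17.4% and 18.9% of all genes, median -0.21). The members, chosen for such differences, ran from 1.74 to 3.99 between airway and squamous basal cells apart from *Grm8*, and stood at -2.86 and -3.61 from squamous basal to Krt13-high cells for *Grm8* and *Pcdh9*, the members with the most UMIs there. *Malat1*, a nuclear RNA, took 2.23% to 2.53% of UMIs in airway basal, 1.75% to 2.10% in squamous basal and 1.31% to 1.59% in Krt13-high cells. The part of nuclear or intronic RNA in the members' differences was not tested.

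Within the 4 basal classes the members were found together in the same cells more often than their separate shares gave. For each pair, cells with a UMI of both were counted. This number was divided by that expected from the product of the shares within each class and 10 bins of depth. A ratio of 1 means independence within a class and depth bin only. The members were chosen along the airway and squamous axis, and a class set by as little as 1 UMI of a gate gene can hold cells of both sides. The 5 airway markers summed to 4481 to 5308 CPM in squamous basal and 7140 to 9679 CPM in airway basal cells. The part of such mixing in the ratios was not tested. Across the 28 pairs without *Grm8*, 26 lay above 1 in each of the 3 libraries. Pairs of other genes at like levels were not counted, so this number has no reference. The members were chosen with earlier results of these data known, and the ratios of their pairs are a description. The highest was that of *Cntn5* with *Ntng1*, at a mean ratio of 6.04 (range 4.01 to 7.14) over 201 cells with both. *Cntn5* with *Nkain3* (3.73, range 2.37 to 4.90) and *Ntng1* with *Nkain3* (3.47, range 2.66 to 4.64) came next. *Mdga2* went with *Nkain3* (2.10), *Cadm2* (2.01) and *Lrrc4c* (1.84), and *Cadm2* with *Lrrc4c* (1.62) and *Pcdh9* (1.43). *Ntng1* and *Lrrc4c*, whose products bind each other, shared 339 cells, a ratio of 1.40 (range 1.25 to 1.57). *Pcdh9* with *Cntn5* and with *Ntng1* lay near 1 (0.972 and 1.07). *Grm8* stood apart from the rest: 6 of its 8 pairs lay below 1 in each library, from 0.457 with *Mdga2* to 0.711 with *Lrrc4c*, and its pairs with *Cntn5* (0.973, range 0.416 to 1.66) and *Ntng1* (1.01, range 0.947 to 1.13) did not. With cells thinned to 5000 UMIs, 23 of the 28 pairs lay above 1 in each library, and with cells thinned to 2000 UMIs 21 did, and 7 of the 8 *Grm8* pairs lay below 1 at both depths. *Cadm2* with *Ntng1*, with *Pcdh9* and *Cntn5* the other exception as counted (1.14, range 0.967 to 1.37), lay below 1 in each library at 2000 UMIs (0.715, range 0.382 to 0.948).

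**Figure D3:**
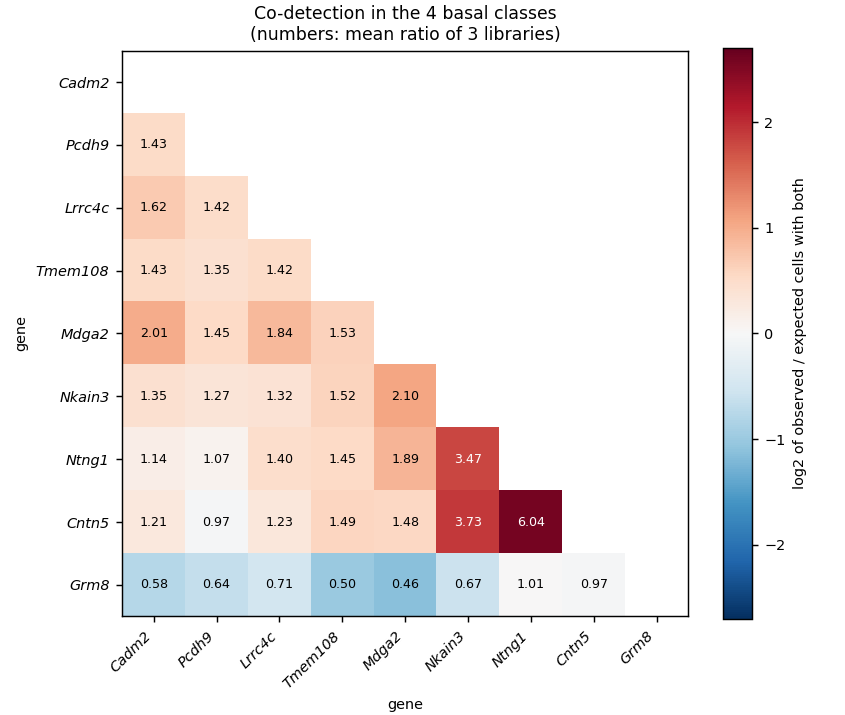
Co-detection of each pair of the 9 genes in the 4 basal classes. Each square gives the mean over 3 libraries of the observed number of cells with both genes divided by the number expected, and its colour shows the log2 of that ratio. The pairs of *Cntn5*, *Ntng1* and *Nkain3* are the highest (3.47 to 6.04), and the *Grm8* pairs lie between 0.457 and 1.01.

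Most *Cntn5* UMIs of the basal classes lay in few cells. Basal cells with at least 5 *Cntn5* UMIs numbered 54, 12 and 59 in libraries 1 to 3, or 1.40%, 0.383% and 0.432% of basal cells, and they held 93.0%, 89.3% and 58.3% of all *Cntn5* UMIs of the basal classes. Between 74.6% and 88.9% of them also had *Ntng1*, 75.0% to 86.4% had *Nkain3*, and 5.56% to 8.47% had *Grm8*. Of these cells 54.2% to 75.0% were airway basal. These cells were picked by the same UMIs that make up the *Cntn5* level, so nothing about the difference between libraries is read from their number. Cells with at least 5 *Grm8* UMIs were far more numerous (401, 451 and 1316). They held 81.0%, 80.0% and 76.0% of all *Grm8* UMIs of the basal classes, so a high share was not particular to the rare *Cntn5*. They were 83.7% to 88.8% squamous basal, and had a *Cadm2* UMI in 3.10% to 8.23%. In cells with at least 5 *Cadm2* UMIs, by contrast, 71.7% to 76.5% had *Pcdh9* and 4.17% to 4.91% had *Grm8*. Of the 64, 33 and 92 squamous basal cells with at least 5 *Cadm2* UMIs, 78.1%, 63.6% and 64.1% had *Pcdh9* and 18.8%, 18.2% and 9.78% had *Grm8*.

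Across the 18 sums of 6 classes and 3 libraries, the genes whose pattern was most like each member were named by Pearson's r of log2(CPM + 1) among 10976 genes. These points share libraries and gates, and r is a description. For *Grm8* they were *Cobl* (0.97), *Calcrl* (0.96) and *Acer2* (0.94), and for *Cadm2* *Kctd8* and *Eya4* (both 0.99). *Pcdh9* was followed by *Plag1*, *Ptprm* and *Fgf1* (0.99 to 0.98), *Lrrc4c* by *Sulf1*, *Sdc2* and *Cacna2d1* (0.99 to 0.98), and *Mdga2* by *Samd5*, *Rspo3* and *Ikzf1* (0.98 to 0.97). For *Ntng1* they were *Fgfr1*, 9530026P05Rik and *Nkain3* (0.95 to 0.92), for *Nkain3* *Aff2*, *Gpm6b* and *Plod2* (0.97), for *Cntn5* *Prelp*, *Fhod3* and *Kcnma1* (0.94 to 0.90), and for *Tmem108* *Akr1c19*, *Gask1b* and *Clstn1* (0.97 to 0.96).

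The choice of members did not use the comparison of cells with an *Lrig1* UMI (Lrig1+) and without one (Lrig1-) within a class, although markers of the airway and squamous classes, the axis along which they were chosen, also differ between these cells. It was fitted with the class and library as a block. All 9 members were among the 14223 genes tested. In squamous basal cells 4 of the 9 were called, beside 4.58% of all genes. *Grm8* was the 1 that was higher in Lrig1+ cells, at 194, 164 and 190 CPM against 136, 141 and 134 CPM, with no overlap (log2 difference 0.42, SE 0.11, adjusted p = 0.0383 by edgeR's quasi-likelihood test). *Ntng1* was lower in Lrig1+ cells in all 3 libraries, at 4.96, 0.396 and 1.79 CPM against 12.7, 4.03 and 5.27 CPM, although the groups overlapped between libraries (log2 difference -1.66, SE 0.29, adjusted p = 0.00186). *Nkain3* (-0.92, SE 0.22, adjusted p = 0.0163, lower in 3 of 3 libraries) and *Cntn5* (-1.46, SE 0.35, adjusted p = 0.0205, lower in 2 of 3) were called lower too, and overlapped likewise. *Pcdh9* just missed the threshold (-0.51, SE 0.15, adjusted p = 0.0512).

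These cells differ in depth. Squamous basal Lrig1+ cells had medians of 16188 to 20676 UMIs and Lrig1- cells of 7357 to 16576. With as many Lrig1- as Lrig1+ cells of like depth (428, 403 and 1799 of each), *Grm8* stood at 215, 200 and 199 against 138, 141 and 139 CPM and was still called (log2 difference 0.53, SE 0.11, adjusted p = 0.00793). *Ntng1* stood at 10.6, 1.15 and 4.07 against 10.8, 4.04 and 5.03 CPM, lower in 3 of 3 libraries but almost level in library 1. It was not called (-0.38, adjusted p = 0.535), nor were the other members called before. In that matched set, where 4.39% of 13755 genes were called, *Lrrc4c* (0.66, SE 0.10, adjusted p = 0.000276), *Cadm2* (0.67, SE 0.15, adjusted p = 0.0127) and *Pcdh9* (0.39, SE 0.10, adjusted p = 0.0358) were called higher in Lrig1+ cells. Before matching, *Cadm2* and *Pcdh9* had log2 differences of -0.48 and -0.51. Matching thus changed their sign, as it did for *Mdga2*, *Nkain3* and *Tmem108*. After matching, *Nkain3* was higher in Lrig1+ cells in only 1 of 3 libraries and *Mdga2* in 2 of 3. *Grm8* was not called with DESeq2 (adjusted p = 0.479), with doublets kept (adjusted p = 0.0524) or without the block, under which no gene of 14223 was called in squamous or airway basal cells (517 and 211 genes at an unadjusted p under 0.05). The 5 airway markers summed to 4707 to 5621 CPM in squamous basal Lrig1+ cells and 3659 to 4796 CPM in Lrig1- cells, and the 5 squamous markers to 1319 to 2259 and 1915 to 3464 CPM, and their part in these results was not tested.

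In airway basal cells *Ntng1* was the only member called, beside 0.415% of all genes. It stood at 28.8, 22.2 and 21.5 CPM in Lrig1+ and 71.2, 19.8 and 58.0 CPM in Lrig1- cells, lower in 2 of 3 libraries with overlapping groups (log2 difference -1.05, SE 0.20, adjusted p = 0.0215). The 5 squamous markers summed to 564 to 691 CPM in these Lrig1+ cells and 897 to 1177 CPM in Lrig1- cells, without overlap, and the 5 airway markers to 7017 to 10156 and 7419 to 8858 CPM, and their part in this result was not tested. The *Ntng1* call was not made at like depth (-0.64, adjusted p = 0.160), without library 1 (adjusted p = 0.216) or without library 3 (adjusted p = 0.509). *Cadm2* was higher in Lrig1+ cells in 3 of 3 libraries without reaching the threshold (216, 150 and 176 against 144, 113 and 134 CPM, log2 difference 0.47, SE 0.14, adjusted p = 0.202). No member passed in Krt13-high cells, where 6.54% of all genes did, or in luminal cells, where 0.366% did. Whether the difference between Lrig1+ and Lrig1- cells itself differed between squamous and airway basal cells was tested after these values were seen, and no member passed, beside 0.246% of all genes: the nearest was *Cadm2* (-0.94, SE 0.22, adjusted p = 0.0904), and for *Grm8* the difference was 0.78 (SE 0.24, adjusted p = 0.378).

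**Figure D4:**
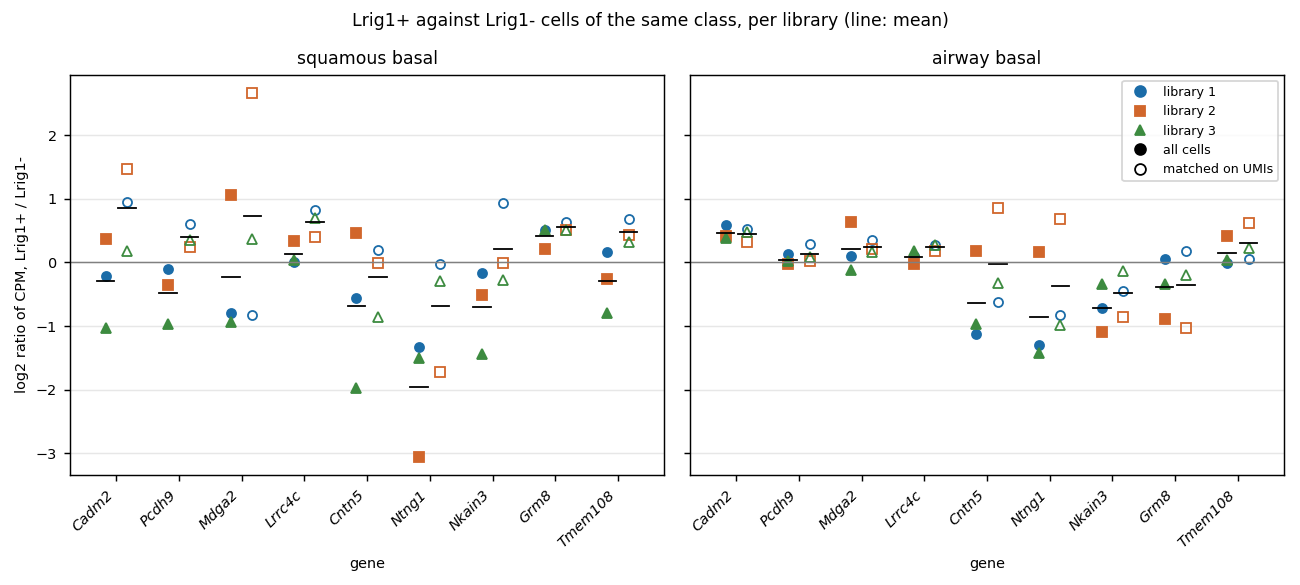
Log2 ratio of the CPM in Lrig1+ cells to that in Lrig1- cells (0.1 CPM added to both) for each gene in squamous basal (left) and airway basal cells (right), with 1 symbol per library and a line at the mean, filled for all cells and open for cells matched on UMIs. *Grm8* in squamous basal cells is above 0 in all 3 libraries in both settings. The *Ntng1* symbols there are below 0 in all 3 in both settings, nearer to 0 for matched cells, where library 1 lies at -0.03.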

How the data were processed

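Single-cell 3' libraries (GEM-X v4) of tdTomato-sorted larynx cells were counted by the authors with Cell Ranger 8.0.1 against mm39, per the labels, and the deposited matrices hold UMI counts. Cells were kept that had 500 to 8000 genes and 1000 to 40000 UMIs, with a mitochondrial share of 8% or less, since the study's wording of these limits exchanges genes and UMIs, and doublets were removed by simulation at 0.4% per 1000 barcodes. Classes were set by the UMI gates given above, in that order after neuroendocrine (at least 3 *Chga* UMIs) and ciliated cells, and the counts were summed per library and class. Levels are CPM of these sums and log2 differences come from the fit. Gene tests used edgeR 4.0.16 (TMM, filterByExpr, quasi-likelihood, Benjamini-Hochberg over all genes tested, threshold 0.05) in R 4.3.3, with the library as a replicate block because classes of 1 library come from the same pool. The deviations of same-library sums correlated at 0.134 to 0.666. The scripts were tested on simulated data. Alternatives were DESeq2 1.42.0, other scaling, filters, gates, quality limits, depth matching and leaving out each library.

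The members, gene lists and tests were chosen with earlier results of these data known. Apart from the members, up to 3 genes were named per list and direction, those with the largest log2 difference among called genes with at least 5 CPM in 1 of the classes, and some genes that this rule names are not reported here. Promoters and gene spans were read from GRCm39 (GENCODE vM39). Intervals and limits for counts of 0 (3 counts) cover counting error only. Doublet removal took out 1030, 326 and 3495 barcodes.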

Additional observations from a re-analysis of the deposited data

How the results depend on the processing

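With the library as a replicate block, 5198 genes were called between airway and squamous basal cells, 7095 between Krt13-high and squamous basal cells and 5578 between airway luminal and airway basal cells. Without the block these were 2261, 3585 and 3944. Under the quality limits as worded in the study they were 242, 769 and 446, and with 1 library left out 3374 to 3981, 4388 to 6127 and 3175 to 4591. For Lrig1+ against Lrig1- cells 651, 59, 930 and 52 genes were called in squamous basal, airway basal, Krt13-high and airway luminal cells. Without the block these were 0, 0, 57 and 2 (517, 211, 1065 and 1089 at an unadjusted p under 0.05), and with 1 library left out 294 to 510, 35 to 45, 289 to 729 and 12 to 19. DESeq2 called 98 in airway basal and 312 in luminal cells, no filter on low counts gave 1137, 371 and 266 in squamous basal, airway basal and luminal cells, and matching on depth gave 33 in luminal cells. Fewer samples or cells enter the settings that leave out a library, keep fewer cells or match depth, and for the others the cause was not tested.

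Of the members' class differences 322 values moved by less than the spread between libraries, 29 moved further, 21 of them under the limits as worded, and 0 changed sign. In Lrig1+ against Lrig1- squamous basal cells, matching on depth changed the sign of *Cadm2* to 0.67, *Mdga2* to 0.62, *Nkain3* to 0.14, *Pcdh9* to 0.39 and *Tmem108* to 0.43. The matched Lrig1+ cells were higher in 3 of 3 libraries for *Cadm2*, *Pcdh9* and *Tmem108*, in 2 for *Mdga2* and in 1 for *Nkain3*. With 1 library left out and no matching, *Cadm2* ranged from -0.70 to 0.0079 and *Tmem108* from -0.69 to 0.034 in squamous basal cells, both above 0 only without library 3. *Mdga2* in airway basal cells ranged from -0.011 to 0.30. Without library 3 *Cntn5* and *Nkain3* were not called in squamous basal cells (adjusted p = 0.909 and 0.841).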

Other observations

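Several members were also detected outside the 6 epithelial classes. *Pcdh9* stood at 503, 364 and 414 CPM in satellite cells, the muscle stem cells, and at 220, 194 and 153 CPM in fibroblasts. *Cadm2* stood at 97.0, 111 and 118 CPM in satellite cells and at 6.69, 9.19 and 6.10 CPM in fibroblasts. *Ntng1* averaged 56.0, 37.5 and 43.3 CPM in fibroblasts and was seen in 0 of 84 neuroendocrine cells, which allows a share of up to 3.57% of cells with a UMI. Neuroendocrine cells also carried *Cadm2* at 85.7, 63.8 and 65.5 CPM.

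*Mdga2* in endothelial cells was uneven, at 220, 0 and 131 CPM in libraries 1 to 3. In library 1 a UMI was found in 68 of 415 endothelial cells (16.4%, Wilson 95% interval 13.1% to 20.3%), in library 3 in 3 of 30 cells (10.0%, interval 3.46% to 25.6%), and in library 2 in 0 of 29 cells, which allows a share of up to 10.3%. The 8 neuron markers summed to 95.8 to 103 CPM in endothelial cells, but 3 of them had no UMI in any library. In all, 7 of the 8 were under 2 CPM in every library. The part of these markers in the *Mdga2* values was not tested.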
